A study of Mus musculus with 8 samples.

Results

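Small nucleolar RNAs (snoRNAs) were compared between cortexes of mice on a normal diet and on a high fat diet (HFD). The members were all rows of the FPKM values that carry the class snoRNA, which gave 56 of 13996 genes. Each diet had 4 male C57BL/6 mice, here called normal mice and HFD mice, which were 16 weeks old after 8 weeks of feeding, and each mouse gave 1 library. The libraries were stranded, depleted of rRNA and sequenced from both ends. The values are FPKM, which corrects fragment numbers for transcript length and for the mapped reads of a library, so they are levels per length.

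Most snoRNAs are cut out of introns of longer host transcripts and stay in the nucleolus, where they guide the chemical modification of ribosomal RNA by base pairing. Box C/D snoRNAs carry the C box and D box letters near their ends and guide ribose methylation by fibrillarin. Box H/ACA snoRNAs fold into hairpins, end in an ACA shortly before the 3′ end and guide the conversion of uridine to pseudouridine by dyskerin. A few, such as U3 (Rnu3a) and U8 (Snord118), act in the cleavage of the rRNA precursor instead.

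By name, the 56 entries comprised 5 Snord (box C/D), 15 Snora (box H/ACA), 2 overlapping entries of Rnu3a, 32 unnamed genes with the prefix Gm, and Scarna10 and Mir1949, whose names belong to other classes. The Gm genes were sorted by their letters in the reference sequence. TGATGA in the first 45 nt together with CTGA in the last 15 nt was read as box C/D, and ACA followed by 2 to 4 nt was read as box H/ACA, on the transcript strand only. Together with the names this gave 10 box C/D and 40 box H/ACA snoRNAs. It left 6 untyped, here called of neither kind, namely Gm22362, Gm23262, Gm24336, Gm26447, Mir1949 and Scarna10. These 6 are the remainder of the rule and not a further kind of snoRNA. Scarna10 was placed among them for its name, although it carries both the C and D letters. Gm22362 lacks the letters but is 77.3% identical to Snora70. Both C and D letters stood in 12.5% of the 56 entries and in 0.0% of 1190 snRNA, 503 misc_RNA and 826 miRNA genes of GENCODE M21 with at least 100 nt. The ACA stood in 67.9% of the 56 entries, and in 1.8%, 3.4% and 10.5% of those classes, so ACA alone marks the kind less sharply. Of 1049 annotated snoRNAs of that length, 1.4% carried both C and D letters and 59.1% the ACA. Snord22, Snord118 and both Rnu3a entries are box C/D by name but lack the letter pair. A Gm gene without the letters can therefore still belong to either kind. The letters are a description of these windows and not a test of function.

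The entries were long snoRNAs. Their lengths ran from 121 to 325 nt with a median of 138.5 nt, whereas 597 of the 1507 snoRNAs annotated in GENCODE M21 (39.6%) are shorter than 121 nt. Of 98 annotated Snord genes, 93 are shorter, and of 42 Snora genes, 0 are. Shorter box C/D snoRNAs were therefore not analysed here, and the contrast of Snord with Snora names rests on 5 Snord genes.

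The sequences that the results below turn on are given first. They were read from GENCODE M21 transcripts on GRCm38, the build of the authors' annotation. The first set is a family of 4 box H/ACA entries of 144 nt in introns of 4 different genes, shown because Gm25117 was the only snoRNA called higher and all 4 had positive fold changes. In Gm22988 the capitals mark the ACA, and in the other 3 they mark each base that differs from Gm22988, which are 4 bases in Gm25291, 9 in Gm24727 and 13 in Gm25117.

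Gm22988, chr11:69669635-69669778, minus strand: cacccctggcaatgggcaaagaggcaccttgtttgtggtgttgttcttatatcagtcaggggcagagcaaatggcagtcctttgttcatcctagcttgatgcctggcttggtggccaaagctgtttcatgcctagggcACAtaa

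Gm25291, chr11:51737779-51737922, minus strand: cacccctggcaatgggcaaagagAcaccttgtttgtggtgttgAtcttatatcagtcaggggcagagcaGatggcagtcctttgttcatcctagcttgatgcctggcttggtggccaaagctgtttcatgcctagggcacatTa

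Gm24727, chr8:33691801-33691944, plus strand: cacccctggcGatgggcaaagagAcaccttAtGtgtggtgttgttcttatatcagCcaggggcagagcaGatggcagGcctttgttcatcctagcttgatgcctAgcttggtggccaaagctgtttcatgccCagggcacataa

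Gm25117, chr10:111481493-111481636, plus strand: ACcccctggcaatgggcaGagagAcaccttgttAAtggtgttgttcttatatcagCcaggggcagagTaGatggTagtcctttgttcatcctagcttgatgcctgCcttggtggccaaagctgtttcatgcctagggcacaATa

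The second pair is shown because Gm25848 had the largest decrease of all snoRNAs, while Gm25776, which is 89.6% identical to it, had no call. In Gm25776 the capitals mark the ACA, and in Gm25848 they mark the 15 positions that differ from Gm25776, including 1 extra base.

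Gm25776, chr12:91573430-91573572, minus strand: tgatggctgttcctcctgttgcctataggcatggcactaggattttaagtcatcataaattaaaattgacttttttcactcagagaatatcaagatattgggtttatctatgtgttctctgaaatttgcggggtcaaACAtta

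Gm25848, chr16:32243712-32243855, minus strand: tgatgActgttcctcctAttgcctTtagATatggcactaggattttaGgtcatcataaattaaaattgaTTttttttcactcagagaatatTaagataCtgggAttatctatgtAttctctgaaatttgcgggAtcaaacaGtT

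The third pair comes from introns of Rps3 and has TGATGA and CTGA in capitals. Snord15b and Snord15a were the named box C/D snoRNAs with the largest decreases and are 66.0% identical. Gm25107 follows with its ACA in capitals, because its ratio to its host gene did not overlap between diets.

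Snord15b, chr7:99479563-99479707, minus strand: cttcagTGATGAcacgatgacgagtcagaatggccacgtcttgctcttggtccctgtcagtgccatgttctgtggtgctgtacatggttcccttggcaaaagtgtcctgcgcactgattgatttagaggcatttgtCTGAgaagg

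Snord15a, chr7:99482785-99482932, minus strand: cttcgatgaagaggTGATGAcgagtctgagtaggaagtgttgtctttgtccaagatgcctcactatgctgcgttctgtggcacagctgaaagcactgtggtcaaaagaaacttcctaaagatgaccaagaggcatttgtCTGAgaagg

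Gm25107, chrX:147484293-147484421, minus strand: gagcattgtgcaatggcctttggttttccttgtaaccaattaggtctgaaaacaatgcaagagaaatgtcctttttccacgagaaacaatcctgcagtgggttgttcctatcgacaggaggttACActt

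Levels differed widely among the snoRNAs. The mean FPKM over all mice was at least 1000 for 17 snoRNAs, between 100 and 1000 for 26 and under 100 for 13, with a median of 312. The most abundant was Gm22988, in an intron of the translation initiation helicase gene Eif4a1. Its FPKM was 18374, 16570, 16350 and 12844 in normal mice and 25343, 16893, 21167 and 16548 in HFD mice. Gm26447 (Eif4a2) and Gm22486 (Ptcd3) followed with 7643 ± 1099 and 6735 ± 957 (SD, n = 4) in normal mice. In HFD mice they were at 6754 ± 949 and 6024 ± 821, with log2 fold changes of -0.18 and -0.16 and adjusted p of 0.402 and 0.441 from limma. Snora74a, also among the 6 most abundant, was at 3344 ± 386 FPKM in normal and 3101 ± 192 FPKM in HFD mice, with a log2 fold change of -0.10 and an adjusted p of 0.484 from limma. These levels are not read counts, because FPKM of short transcripts rises steeply as length falls. FPKM of small RNAs of equal length were whole multiples of a smallest step in each mouse, taken as the value of 1 fragment. That step was 19.0 to 33.7 FPKM at 131 nt, 7.90 to 13.4 FPKM at 144 nt and 1.35 to 2.03 FPKM at 191 nt. It was smallest in normal mouse 4 and HFD mouse 2 at 131 nt and at 191 nt, and a smaller step means that more fragments stand behind the same FPKM.

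From these steps the fragments behind each value could be estimated for 39 snoRNAs, 28 of them at a length with its own step and 11 by interpolation. The step taken was the largest that made all values whole, so an estimate is a lower one, and it could not be had for the 129 nt entries and those outside 131 to 191 nt. Gm22988 had 1241 to 2098 fragments in a mouse, whereas 12 snoRNAs had 3 fragments or fewer in at least 1 mouse. The spread between mice was smaller where the estimated fragments were more. The SD within diets of log2(FPKM + 0.1) had a median of 0.718 for the 13 snoRNAs with under 10 fragments on average, 0.47 for the 15 with 10 to 50 and 0.258 for the 11 with 50 or more.

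**Figure D1:**
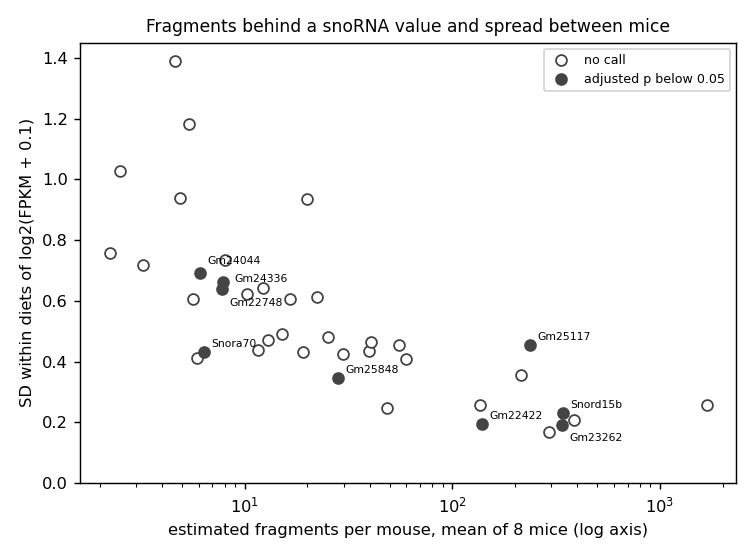
Estimated fragments per mouse (mean of 8 mice, log axis) against the SD within diets of log2(FPKM + 0.1) for 39 snoRNAs; filled points passed adjusted p of 0.05 between diets. The points fall from left to right, and of the called snoRNAs Snora70, Gm24044, Gm22748 and Gm24336 lie at under 10 fragments.

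The diets were compared with limma on log2(FPKM + 0.1), two-sided, and p-values were adjusted by Benjamini-Hochberg for all 13982 genes whose FPKM averaged 1 or more and was never 0. Of 56 snoRNAs, 55 entered the test, and a Rnu3a entry with values of 0 did not. Among them 10 passed an adjusted p of 0.05, which is 18.2%, against 33.1% of all genes tested. In HFD mice 9 were lower and 1 was higher, where 15.3% of all genes tested were lower and 17.7% higher. The share of snoRNAs called was thus below that of all genes, and their direction was mostly downward. The log2 fold change was negative for 43 and positive for 12 snoRNAs, with a median of -0.24 against 0.00311 for all genes tested. With a change of over 40% required as well, 9 of 55 snoRNAs remained, against 1433 of 13982 genes (10.2%). At this cut the share of snoRNAs was thus above that of all genes. Called snoRNAs had SE of 0.12 (Gm23262) to 0.39 (Gm24044), and a larger SE needs a larger change for a call. A called snoRNA therefore tends to pass 40% anyway, so this share does not show that snoRNAs changed more than other genes. Values did not overlap between diets for 4 snoRNAs, which were all lower on the high fat diet, where 14.7% of all genes were lower and 17.2% higher without overlap. At an unadjusted p of 0.05, 16 of 55 snoRNAs passed, where 44.3% of all genes did.

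The call count rested partly on single mice. It fell to 5 without normal mouse 3 and to 6 without HFD mouse 3, and it lay between 7 and 11 without any other mouse. The median stayed negative in all 8 of these fits, between -0.41 without normal mouse 2 and -0.09 without HFD mouse 2. Relative to the mean of all mice, the median snoRNA stood at 0.396, -0.149, 0.215 and 0.108 on the log2 scale in normal mice and at 0.041, -0.466, -0.077 and 0.064 in HFD mice. Normal mouse 2 and HFD mouse 2 were the lowest of their diets, and the ranges of the diets overlapped.

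**Figure D2:**
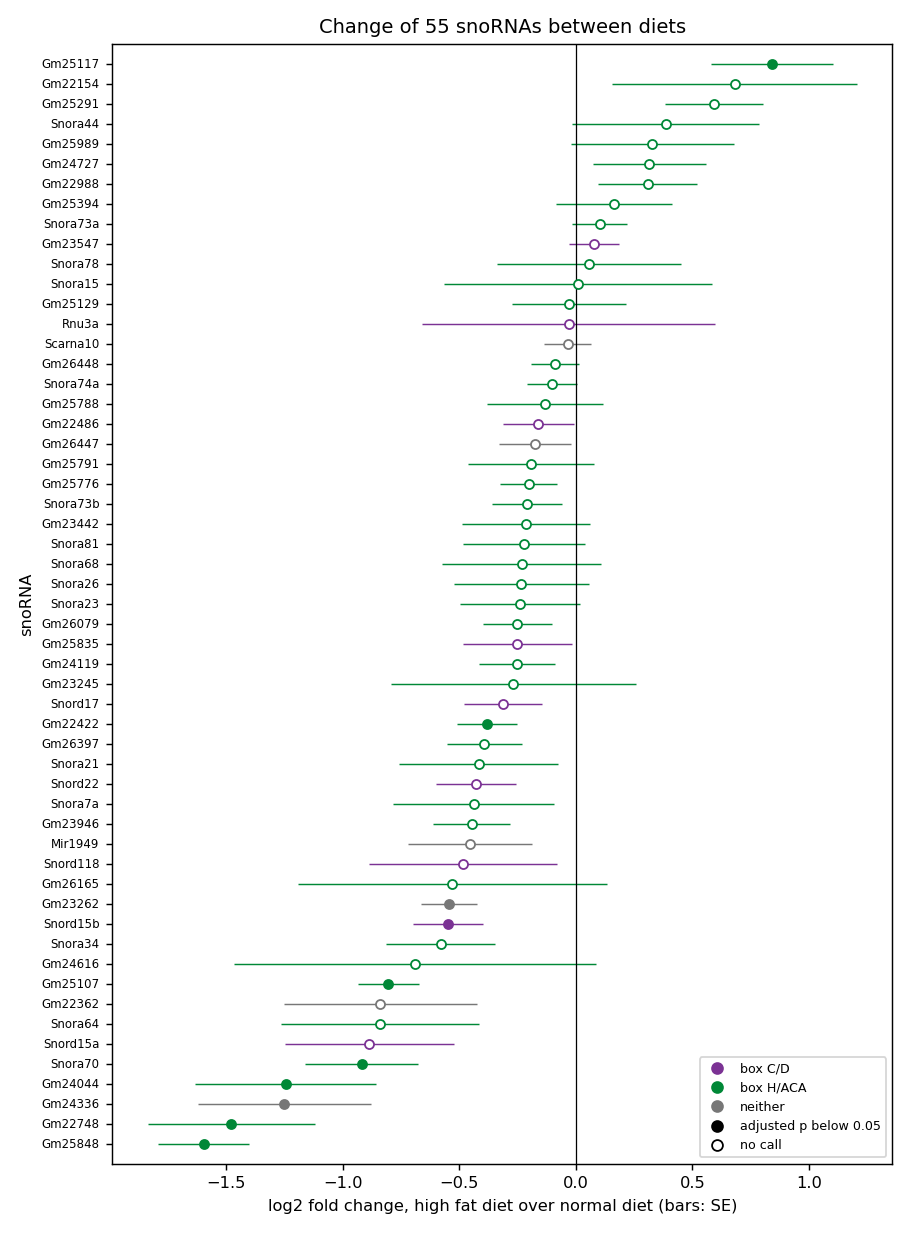
log2 fold change (high fat over normal diet, x axis, bars SE) of the 55 tested snoRNAs (y axis), coloured by box kind and filled where adjusted p was below 0.05. The points of 43 snoRNAs lie left of 0, and the only filled point on the right is Gm25117.

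By kind, 1 of 9 box C/D snoRNAs tested was called, Snord15b, and it was lower. Of 40 box H/ACA snoRNAs 7 were called, 6 lower and 1 higher, and of the 6 of neither kind 2 were lower. These shares are 11.1%, 17.5% and 33.3%, against 33.1% of all genes tested. The median log2 fold change was -0.31, -0.23 and -0.50. By name, 1 of 5 Snord, 1 of 15 Snora and 8 of 32 Gm genes were called (20.0%, 6.7% and 25.0%), with medians of -0.48, -0.23 and -0.23. All 5 Snord genes had negative values, from -0.89 to -0.31, but only Snord15b passed. The difference between kinds was not tested. The call of Snord15b was lost, leaving 0 box C/D calls, without normal mouse 3 or without HFD mouse 2 or 3, and the box C/D calls rose to 2 without normal mouse 2 and to 3 without HFD mouse 4. The box H/ACA calls fell to 4 without normal mouse 3 or HFD mouse 3.

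Among box C/D snoRNAs, Snord15b and Snord15a lie in introns of Rps3, a protein of the small ribosomal subunit, and are known guides for methylation of large-subunit rRNA. Snord15b was at 4105, 3340, 4822 and 4124 FPKM in normal mice and at 3145, 2432, 2373 and 3271 FPKM in HFD mice. The groups did not overlap, and the log2 fold change was -0.55 (SE 0.15, adjusted p = 0.021 from limma). Snord15a, the sequence beside it, was less abundant, at 178, 105, 121 and 120 FPKM in normal mice and 48.5, 39.8, 80.9 and 148.6 FPKM in HFD mice. High fat diet fed mouse 4 lay among the normal mice, and the log2 fold change of -0.89 (SE 0.36) missed the threshold with an adjusted p of 0.086 from limma. Without that mouse Snord15a passed, at -1.25 with an adjusted p of 0.00891. The estimated fragments behind them were 247 to 549 for Snord15b and 5 to 21 for Snord15a per mouse. Leaving out normal mouse 3, HFD mouse 2 or HFD mouse 3 moved Snord15b outside the threshold, to adjusted p of 0.0534 to 0.0591.

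The other box C/D snoRNAs had no call. Snord17 (Snx5) had 998 ± 157 FPKM in normal and 811 ± 176 FPKM in HFD mice (SD, n = 4), with a log2 fold change of -0.31 and an adjusted p of 0.177 from limma. Snord22 (Snhg1) was at -0.43 with an adjusted p of 0.0820 and Snord118, or U8, at -0.48 with an adjusted p of 0.377 from limma. U3 is listed as 2 entries that overlap in position, and in 5 of 8 mice 1 of them was at 0.1 FPKM or less. The entry that entered the test had a log2 fold change of -0.03 and no call. The sum of both entries was 363, 194, 224 and 325 FPKM in normal mice and 190, 114, 222 and 189 FPKM in HFD mice. For the sum, the difference of mean log2 was -0.62 with p = 0.0571 in an exact two-sided permutation test, whose smallest p is 0.0286 here. This sum was chosen after the data were seen.

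Among box H/ACA snoRNAs the largest decrease was that of Gm25848, in an intron of Fbxo45, which encodes a substrate receptor of a ubiquitin ligase. Its FPKM was 393, 454, 661 and 356 in normal mice and 159, 175, 111 and 162 in HFD mice. The groups did not overlap, the mean was 3.07 times higher on the normal diet, and the log2 fold change was -1.60 (SE 0.20, adjusted p = 0.000900 from limma). The estimated fragments were 37, 34, 52 and 45 against 13, 21, 11 and 13. The call was kept in all 8 fits that left out a mouse, with log2 fold changes of -1.71 to -1.42. Gm25776 (Gtf2a1), its near copy printed above, was at 3567 ± 433 FPKM in normal and 3099 ± 348 FPKM in HFD mice, with a log2 fold change of -0.20 and an adjusted p of 0.229 from limma. These 2 sequences can share fragments where they are identical, so both values carry that uncertainty.

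Gm25107, in an intron of the leucine-rich repeat gene Lrch2 on the X chromosome, was at 1387, 1277, 1669 and 1524 FPKM in normal mice. In HFD mice it was at 931, 884, 913 and 643 FPKM. The groups did not overlap, and the log2 fold change was -0.81 (SE 0.13, adjusted p = 0.00242 from limma), kept in all 8 fits without a mouse. Gm22748 lies in an intron of Odc1, the ornithine decarboxylase of polyamine synthesis. It was at 143, 183, 279.5 and 210.3 FPKM in normal mice and at 82.8, 41.8, 50.2 and 145.8 FPKM in HFD mice. High fat diet fed mouse 4 overlapped normal mouse 1, and the log2 fold change was -1.48 (SE 0.36, adjusted p = 0.0127 from limma) on 3 to 16 fragments a mouse. Gm24044, in an intron of the ribosomal protein gene Rpsa, rested on 2 to 15 fragments and was at 22.7, 48.4, 53.6 and 64.2 FPKM in normal mice against 25.9, 31.2, 11.0 and 13.3 FPKM in HFD mice. Normal mouse 1 lay within the range of the HFD mice, and the log2 fold change of -1.24 (SE 0.39, adjusted p = 0.0347 from limma) lost its call without normal mouse 2, 3 or 4 or HFD mouse 3 or 4, at adjusted p of 0.0751 to 0.0870.

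Snora70 lies in an intron of Rpl10 on the X chromosome, and 3 Gm entries resemble it, at 76.3% to 90.6% identity within the group. Snora70 was at 183, 170.3, 140.2 and 85.9 FPKM in normal mice and 77.2, 52.0, 93.8 and 77.7 FPKM in HFD mice. High fat diet fed mouse 3 overlapped normal mouse 4, and the log2 fold change was -0.92 (SE 0.24, adjusted p = 0.0182 from limma). Without normal mouse 2 it was -0.82 with an adjusted p of 0.0515. Gm22422, in an intron of Trmt10c, a subunit of mitochondrial ribonuclease P, was more abundant, with 2998, 2956, 3697 and 2637 FPKM against 2248, 2051, 2352 and 2774 FPKM. High fat diet fed mouse 4 lay above normal mouse 4, and the log2 fold change of -0.38 (SE 0.13) had an adjusted p of 0.0478, the last inside the threshold. Its call was lost in 6 of the 8 fits without a mouse, kept only without normal mouse 4 or HFD mouse 4, with log2 fold changes of -0.40 to -0.29 and adjusted p of 0.0735 to 0.119 where lost. The other members, Gm22362 (Ybx3) and Gm26165 (Snx5), had no call at -0.84 and -0.53, so all 4 entries of this group had negative values. Just outside the threshold lay Gm25291, with an adjusted p of 0.0539.

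Among the increases without a call, Gm22154 (Pabpc4) had the highest log2 fold change, 0.68, but its SE was 0.52 and limma gave an adjusted p of 0.340. The 4 normal mice had 757, 202, 157 and 571 FPKM and the HFD mice 454.5, 324, 582 and 1061 FPKM, so the groups overlapped.

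Both remaining decreases were snoRNAs of neither kind. Gm23262, in an intron of the translation initiation factor gene Eif4g2, was at 1602, 1245, 1784 and 1458 FPKM in normal mice. In HFD mice it was at 1112, 998, 898 and 1147 FPKM. The groups did not overlap, and the log2 fold change was -0.55 (SE 0.12, adjusted p = 0.00878 from limma) on 239 to 506 fragments a mouse. Gm24336 (Cwf19l1) was at 132.3, 106.4, 112.9 and 70.5 FPKM against 86.9, 22.2, 54.1 and 33.2 FPKM, with HFD mouse 1 above normal mouse 4. Its log2 fold change was -1.25 (SE 0.37, adjusted p = 0.0288 from limma) on 3 to 14 fragments. The call was lost without normal mouse 1, 2 or 3 or HFD mouse 2 or 4, at adjusted p of 0.0609 to 0.0713.

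**Figure D3:**
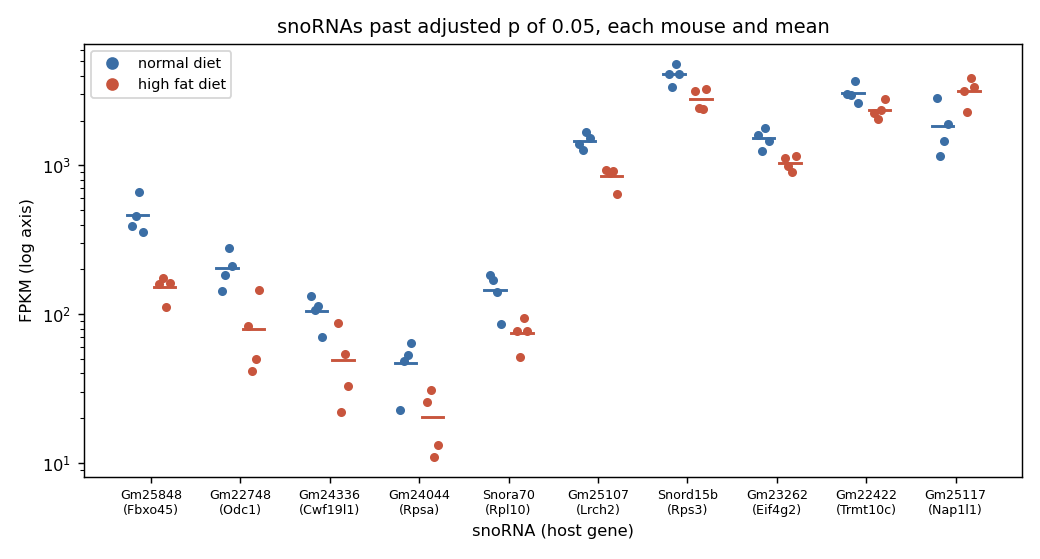
FPKM on a log axis of the 10 snoRNAs past adjusted p of 0.05 (x axis, host gene in brackets) in each normal (blue) and HFD mouse (red), with a bar at the mean. Blue and red do not overlap for Gm25848, Gm25107, Snord15b and Gm23262, and Gm25117 is the one whose red mean lies above.

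The only called increase belonged to the family of 4 near copies printed above. Gm25117, in an intron of the histone chaperone gene Nap1l1, was at 2836, 1148, 1461 and 1888 FPKM in normal mice and 3143, 2287, 3834 and 3357 FPKM in HFD mice. Normal mouse 1 lay above HFD mouse 2, and the log2 fold change was 0.84 (SE 0.26, adjusted p = 0.0346 from limma) on 86 to 380 fragments a mouse. The call was lost without normal mouse 2 or 3 or HFD mouse 1, 3 or 4, at log2 fold changes of 0.64 to 0.83 and adjusted p of 0.0725 to 0.0870.

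Gm25291, in an intron of Sec24a, which encodes a coat protein of vesicles leaving the endoplasmic reticulum, had 2315, 1776, 1817 and 1367 FPKM in normal and 3608, 2504, 3057 and 1915 FPKM in HFD mice. Its log2 fold change of 0.59 (SE 0.21) had an adjusted p of 0.0539 from limma, and it passed without normal mouse 1 at 0.72 (adjusted p = 0.0307) and without HFD mouse 4 at 0.76 (adjusted p = 0.0197). Gm22988 was 16034 ± 2312 FPKM in normal and 19988 ± 4142 FPKM in HFD mice, with a log2 fold change of 0.31 (SE 0.21) and an adjusted p of 0.286 from limma. Gm24727 (Gsr, glutathione reductase) was at 278 ± 60.5 and 354 ± 115 FPKM, with a log2 fold change of 0.31 (SE 0.24) and an adjusted p of 0.339 from limma. All 4 copies thus had positive values, while 43 of 55 snoRNAs had negative ones. Since they are 88.9% to 97.2% identical, fragments can be assigned to more than 1 copy, and the 4 values are not independent.

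The sum of the 4 copies was 23834, 19748, 19970 and 16304 FPKM in normal mice and 32583, 22067, 28390 and 22031 FPKM in HFD mice, with normal mouse 1 above 2 of the HFD mice. Gm22988 alone made up 17.5% to 23.9% of the summed FPKM of the 56 snoRNAs in normal mice and 21.1% to 30.4% in HFD mice. The sum over all 56 snoRNAs lay between 69436 and 88131 FPKM in normal mice and between 62300 and 83242 FPKM in HFD mice, so the total overlapped between diets.

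**Figure D4:**
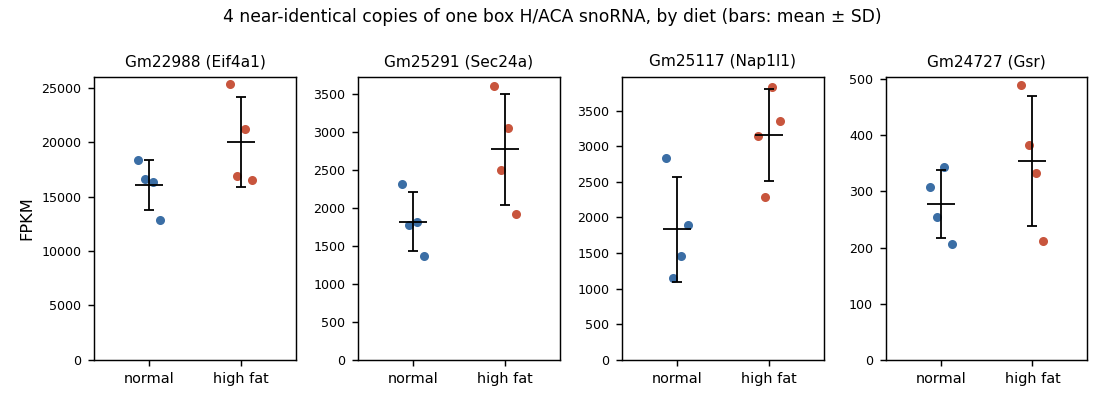
FPKM by diet of the 4 near-identical box H/ACA entries of 144 nt (panels, host gene in brackets, each y axis from 0 with its own scale), with points for the 4 mice of each diet and bars for mean ± SD. The high fat diet mean is above the normal mean in each panel, and the points of the diets overlap in all 4.

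Host genes were taken from coordinates. Of 56 snoRNAs, 49 lay on the same strand within another gene of the FPKM values, 45 in introns and 4 (Snora44, Snora73a, Snora7a and Snord22) touching an annotated exon, where fragments of the spliced host can add to the value. The 7 others, both Rnu3a entries, Mir1949, Snora26, Snora74a, Snora78 and Snord118, had no host among these genes. The 49 pairs share 40 hosts. Of these hosts 15 were called, 11 lower and 4 higher, which is 37.5% against 33.1% of all genes tested, with a median log2 fold change of -0.01. Hosts changed little in size. They lay between -0.32 (Timm23) and 0.67 (Prrc2a), and 2 of 40 exceeded a change of 1.5 times.

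Set beside their hosts, 37 of 49 snoRNAs had a lower log2 fold change than the host and 12 a higher one, with a median difference of -0.21. Signs were equal in 29 of 49 pairs. Pearson's r of the fold changes over the 49 pairs was 0.25 and Spearman's rho 0.27, as a description, since pairs come from the same 8 libraries and several share a host. Both snoRNA and host were called in 4 pairs, the snoRNA alone in 6 and the host alone in 16. The 4 pairs in which both fell were Gm25848 with Fbxo45 (-0.20), Gm22748 with Odc1 (-0.28), Gm23262 with Eif4g2 (-0.19) and Gm22422 with Trmt10c (-0.27). The change of the snoRNA was the larger in each. That follows in part from the choice of pairs, since snoRNAs had larger SE than hosts and needed larger changes to be called. Of these pairs, only Gm25848 had a ratio to the host without overlap (unadjusted p = 0.0286, exact permutation test as described below). For Gm22748, Gm23262 and Gm22422 the ratios overlapped, with p = 0.0571, 0.114 and 0.543 in the exact permutation test. The ratio of Gm25848 did not pass the adjustment given below, which a few pairs at the smallest p could not have passed. The adjusted p of Fbxo45, Odc1, Eif4g2 and Trmt10c from limma were 0.00756, 0.00958, 0.0120 and 0.0322. That of Trmt10c rose to 0.0677 to 0.0820 without normal mouse 2 or 3 or HFD mouse 1, 3 or 4. The hosts Rps3, Rpl10, Rpsa, Lrch2, Cwf19l1 and Nap1l1 of the other 6 called snoRNAs had log2 fold changes of -0.11, 0.10, 0.07, -0.05, 0.15 and 0.10 with no call.

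**Figure D5:**
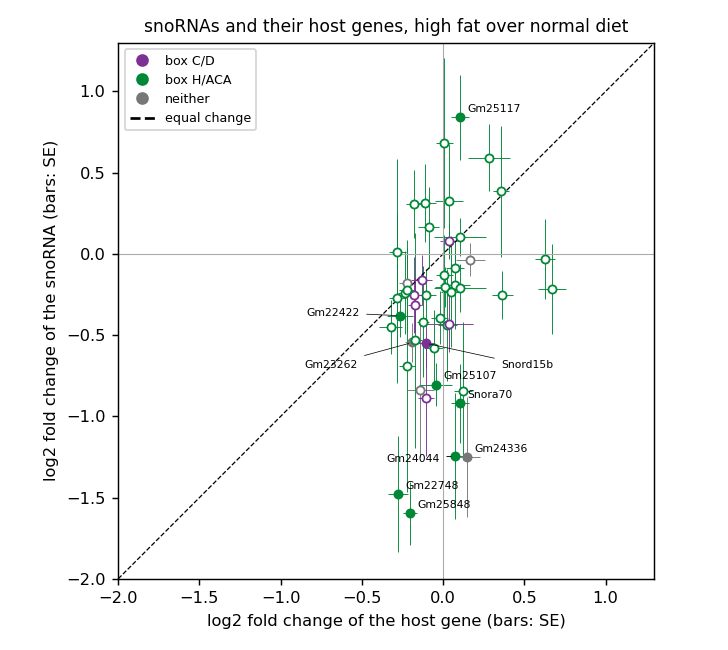
log2 fold change of the host gene (x axis) against that of the snoRNA (y axis) for 49 pairs, high fat over normal diet, with SE bars, a dashed line of equal change, and filled points for called snoRNAs. Hosts stay within -0.32 to 0.67 while snoRNAs run from -1.60 to 0.84, and 37 points lie below the dashed line.

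The ratio of snoRNA to host within each mouse was tested for the 29 pairs of the snoRNAs named by rule, some of which were named for their change, so these p-values are not independent of that choice. It was tested with an exact two-sided permutation test, unadjusted, whose smallest p of 0.0286 needs groups that do not overlap. It was reached by 3 pairs. For Gm25848 and Fbxo45 the log2 ratio was 4.33, 4.63, 5.07 and 4.20 in normal mice and 3.23, 3.42, 2.74 and 3.26 in HFD mice, a difference of -1.39. For Gm25107 and Lrch2 it was 8.37, 8.25, 8.30 and 8.40 against 7.69, 7.65, 7.87 and 7.07, a difference of -0.76. For Gm22988 and Eif4a1 it was 7.24, 7.13, 7.18 and 6.82 against 7.93, 7.34, 7.78 and 7.27, a difference of 0.49. In this pair the host was called lower at -0.18 (adjusted p = 0.0196 from limma, 0.0524 without normal mouse 2), while the snoRNA had no call. After Benjamini-Hochberg adjustment over the 29 pairs the exact p of these 3 became 0.184. In all 49 pairs, tested after the data were seen, these 3 were also the only ones without overlap, and their adjusted p was 0.233. With 4 mice per diet the exact p cannot fall below 0.0286, and a few pairs at that value cannot pass either adjustment. That none passed was thus set by the number of mice and decides nothing about these pairs. Without normal mouse 1, 2 or 4 or HFD mouse 1, 2 or 4, 5 or 6 pairs did not overlap, since smaller groups separate more easily.

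Several hosts carried more than 1 snoRNA. In Rpsa, Gm24044 was at -1.24 and Gm26448 at -0.09 (adjusted p = 0.527 from limma), with 505 ± 50.3 FPKM in HFD mice against 538 ± 64.9 in normal mice. In Eif4a1, Gm22988 was at 0.31 and the box C/D entry Gm25835 at -0.25 (adjusted p = 0.431 from limma). In Eif4a2, which was itself lower at -0.22 (adjusted p = 0.00848 from limma), Gm26447, Gm24616 and Snora81 were at -0.18, -0.69 and -0.22 with no call, and in Snhg3, Snora73a and Snora73b were at 0.10 and -0.21 with no call, although they are 96.6% identical and can share fragments. The pairs in Snx5 (Snord17 at -0.31 and Gm26165 at -0.53), Cct6a (Gm23245 at -0.27 and Snora15 at 0.01) and Pabpc4 (Gm22154 at 0.68 and Gm25788 at -0.13) had no call either. Gm24616, Gm26165, Gm23245 and Snora15 had an estimated 1 fragment in at least 1 mouse. The difference between sisters was not tested.

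Ribosomal protein genes hosted 9 of the snoRNAs in 7 genes. All 9 had negative log2 fold changes, from -1.24 to -0.09 with a median of -0.55, and 3 were called (Gm24044, Snora70 and Snord15b), which is 33.3% against 33.1% of all genes tested. The 7 hosts had a median of 0.05, and 1, Rpl23, was called lower at -0.13 (adjusted p = 0.0296 from limma). This grouping was made after the values were seen and was not tested. Among host genes with the prefix Snhg, Snhg11, which has the class protein_coding in the deposited values, rose by 0.63 on the log2 scale, from 98.7 ± 7.22 FPKM to 152 ± 6.74 FPKM (adjusted p = 0.000367 from limma), while its snoRNA Gm25129 was at -0.03 with no call. Snhg12 rose by 0.35 (adjusted p = 0.00140 from limma), and Snora44, which touches its exon, was at 0.38 with no call (adjusted p = 0.486).

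Of the 8 core proteins bound to snoRNAs, 2 were called, both lower, which is 1 of 4 (25%) for each kind of particle. Of all genes tested 33.1% were called, and 15.3% were called lower. Of the 4 core proteins of box C/D particles, Nop58 fell from 16.5 ± 0.947 FPKM to 13.2 ± 0.506 FPKM, or -0.32 on the log2 scale (SE 0.055, adjusted p = 0.00313 from limma), without overlap between diets. The methyltransferase fibrillarin (Fbl), Nop56 and Snu13 had no call at -0.01, -0.08 and -0.06. Of the 4 core proteins of box H/ACA particles, Nop10 fell from 23.8 ± 1.89 FPKM to 19.9 ± 1.05 FPKM, or -0.25 on the log2 scale (SE 0.065, adjusted p = 0.0165 from limma), also without overlap. Dkc1 did not overlap either, at 6.9 to 7.7 FPKM in normal and 6.4 to 6.8 FPKM in HFD mice, but had no call. Of all genes tested, 14.7% were lower without overlap. The pseudouridine synthase dyskerin (Dkc1), Nhp2 and Gar1 had no call at -0.13, 0.16 and 0.23, and Gar1 passed only without HFD mouse 1, at 0.33 with an adjusted p of 0.0487. Of 12 assembly factors 1 rose (Naf1, at 0.36), with a median of -0.03. Of 10 processing factors 1 fell (Skiv2l2, a helicase of the nuclear exosome, at -0.21), with a median of -0.10. Of 15 genes of the U3 processome, which cuts the rRNA precursor, 3 fell and 2 rose, with a median of -0.02. Of 17 genes listed as non-coding snoRNA hosts, Snhg11 included, 6 rose and 1 fell, with a median of 0.22. Of the 6, Snhg20 is listed at 15.6 FPKM in all 4 normal mice, and without it 5 of 16 rose and the median was 0.17. These shares of 8.3%, 10%, 33.3% and 41.2% stand beside 33.1% of all genes tested.

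For comparison, among 53 snRNA, scaRNA, misc_RNA and ribozyme genes no longer than the longest snoRNA, 1 was lower and 3 were higher, with a median log2 fold change of 0.09. That is 7.5% called, against 33.1% of all genes tested. By class and with no limit on length, the medians were 0.05 for 16 snRNA, -0.10 for 10 scaRNA and 0.30 for 28 misc_RNA genes. The difference from snoRNAs was not tested.

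Marker genes of other brain regions and cell types were also compared in these cortex samples, where 15.3% of all genes tested were lower and 17.7% higher. Summed FPKM of 7 striatal markers was 205 to 376 in normal and 58.0 to 68.3 in HFD mice, and all 7 were called lower. For 8 oligodendrocyte markers it was 2053 to 3391 against 1417 to 1967, with 8 of 8 lower. For 7 cerebellar markers it was 30.9 to 377 against 22.1 to 29.1 with 4 of 6 tested lower, and Gabra6 is listed at 0 in at least 1 mouse. For 7 thalamic markers it was 41.5 to 122 against 37.7 to 41.9 with 2 of 6 tested lower, and Shox2 is listed at 0 in at least 1 mouse. For 8 choroid plexus markers it was 346 to 733 against 21.6 to 948 with 3 lower, and for 6 blood genes 462 to 650 against 353 to 433 with 5 lower. The 8 cortical neuron markers, present in every mouse, were at 620 to 917 against 909 to 1247 with 6 of 8 higher. The part of these cell types in the snoRNA values was not tested, and in bulk tissue fewer cells of a type and less RNA per cell cannot be told apart.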

How the data were processed

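RNA of 8 mouse cortexes, 4 per diet, was sequenced. To obtain FPKM, the authors checked reads with FastQC, trimmed them with Trimmomatic, aligned them with STAR (mm10) and ran Cuffnorm with the basic GENCODE M17 annotation (GRCm38.p6). No tool version is given in the sources used. FPKM are scaled by depth and length and rounded to 0.1, so read totals are unknown. Class, names and IDs are those of the deposited values. Salmon and edgeR values of the authors were not used here.

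From the deposited FPKM, log2(FPKM + 0.1) was fitted with limma 3.58.1 in R 4.3.3 (two-sided, variance trend, Benjamini-Hochberg over 13982 genes averaging 1 FPKM or more without a 0). A fold change on this scale understates changes of low genes. Replicates are separate mice. Coordinates, sequences, introns and exons came from GENCODE M21 on GRCm38, and the host was the shortest gene of the values that holds the snoRNA on its strand. Sequences were aligned globally with Biopython 1.88, and those at 75% identity or more were grouped. Per-mouse steps were the largest values that made FPKM of equal-length small RNAs whole within rounding. Permutation tests and figures used Python 3.11.15, numpy 2.4.6, pandas 2.3.3 and matplotlib 3.10.9. On simulated data for 13982 genes under the same diets, 87 of 100 genes changed 2-fold and 96 of 100 changed 3-fold were recovered by the tested procedure. The changed genes were drawn at random from all 13982, so these rates were not estimated for snoRNAs.

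The members and lists were chosen with earlier results of these data known. Named were each called snoRNA (at most 12), the 6 most abundant, the 4 largest changes each way, all snoRNAs of hosts with 2 or more, their hosts, and 8 core proteins; others named were chosen after their values were seen. Alternatives were other constants added, filters and normalizations, a fit without variance trend, a block for the replicate number, a minimum change, and each mouse left out.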

Additional observations from a re-analysis of the deposited data

Results flagged for a closer look

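Gm25107 in HFD mice had a sample far from the others. HFD mouse 4 was at 643.3 FPKM, while the other 3 lay between 883.5 and 931.2 FPKM, so its gap to the nearest took 0.834 of the range, just above Dixon's critical value for 4 samples. The decrease of Gm25107 kept its call without that mouse, at a log2 fold change of -0.68. Of 60 groups of 4 mice checked, over the named snoRNAs, 1 was flagged, and chance flags about 1 in 20 groups.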

How the results depend on the processing

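Of 55 tested snoRNAs, 10 were called; the count lay between 9 and 13 under other added constants, filters, normalizations, a minimum change, no variance trend or the replicate block, and 8 to 10 of the calls reported were among them where all mice were used. Leaving out a mouse gave 5 to 11 calls for snoRNAs, 0 to 3 for box C/D, 4 to 9 for box H/ACA, 12 to 15 for host genes, 12 to 17 for the protein and host lists, and 3 to 6 for snoRNA to host ratios, and the median snoRNA log2 fold change was -0.4084 to -0.0858. Replicate numbers did not pair the mice, since same-numbered mice correlated at -0.0382, -0.0275, -0.109 and -0.0717 in their deviations from the diet means. With the replicate block 12 snoRNAs were called, 8 of them among the 10, and 2 box C/D snoRNAs were called. Under the block Gm24044 and Gm22422 lost their call (adjusted p = 0.0748 and 0.0843 from limma) and Gm25291 and Snord17 gained one (0.0108 and 0.0311), and Trmt10c lost it (0.0704). Gm24044 lost it without the variance trend, Eif4a2 under quantile normalization (0.0513), where Snora73b gained one at -0.36 (0.0134) and Gm25291 at 0.66 (0.0332). Gm25291 also gained one with a mean FPKM of at least 5 (0.0490).

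Among the named genes, signs turned only for values without a call. When single mice were left out, log2 fold changes ran from -0.862 to 0.022 for Gm23245, -0.25 to 0.14 for Gm25788, -0.92 to 0.20 for Gm26165, -0.52 to 0.50 for Snora15, -0.361 to 0.0391 for Snora81, -0.0889 to 0.0299 for Lrch2, -0.0288 to 0.0376 for Gtf2a1, -0.0266 to 0.0231 for Pabpc4, -0.0032 to 0.208 for Snhg3 and -0.0461 to 0.0603 for Fbl. Median-ratio rescaling moved Pabpc4 to -0.0003. The cause was not tested. By the estimates, 12 snoRNAs had 3 fragments or fewer in some mouse, called ones among them.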
